A study of Mus musculus with 16 samples.

Results

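The knockout effects of 2 mouse lines were set against each other gene by gene. For every gene, the log2 change in livers labelled RPN11 knockout over RPN11 flox/flox livers was taken, and the log2 change in METTL3 knockout over METTL3 flox/flox livers was subtracted from it. A positive difference means that a gene stood higher after the labelled RPN11 knockout than after the METTL3 knockout, each relative to its own flox/flox livers. All 16 livers of the series entered, and 13118 of the 16973 genes in the deposited count table held enough counts to be tested. The 4 groups were 4 livers labelled hepatocyte-specific RPN11 knockout, 4 RPN11 flox/flox livers, 4 livers labelled hepatocyte-specific METTL3 knockout and 4 METTL3 flox/flox livers. All came from male C57BL/6 mice with free access to food, and RNA was sequenced after ribosomal RNA was removed. The age, the diet, the hour of collection and the driver of the deletion are not stated by the labels. Livers are numbered within a group, and nothing in the labels says that they came from separate mice, so p-values measure only the spread between these samples.

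RPN11, encoded by Psmd14, is the proteasome lid subunit that cuts ubiquitin chains off proteins as they are degraded. METTL3 is the catalytic subunit of the complex that writes N6-methyladenosine on mRNA, a mark whose reader proteins act on splicing, translation and decay. Hepatocytes carry a circadian clock in which the factors ARNTL and CLOCK switch on the Per and Cry genes and the output genes Dbp, Tef and Hlf, whose products feed back on or carry the rhythm. They also make cholesterol, fatty acids, urea and most plasma proteins, and sterol response factors (SREBPs) drive the lipid synthesis genes.

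The targeted genes were examined first. Psmd14 (chr2:61711694-61800376, plus strand) had 91.9, 72.6, 83.4 and 63.7 CPM in labelled RPN11 knockouts and 74.2, 80.7, 76.2 and 81.8 CPM in RPN11 flox livers. Psmd14 was at 70.1, 58.96, 69.3 and 58.3 CPM in METTL3 knockouts and 88.8, 64.3, 80.5 and 82.4 CPM in METTL3 flox livers. Its difference between the effects was 0.29 (0.18 SE, adjusted p = 0.314), and its level in labelled RPN11 knockouts was not lower (-0.01, adjusted p = 0.984), so the deletion is not visible in its summed gene count and these libraries are named by their label throughout. Whether the counted reads include the deleted part is not known here. Mettl3 (chr14:52294841-52305128, minus strand) had 12.4, 13.6, 8.75 and 13.6 CPM in labelled RPN11 knockouts and 10.6, 8.61, 7.91 and 11.9 CPM in RPN11 flox livers. Mettl3 was at 6.58, 6.21, 6.41 and 6.54 CPM in METTL3 knockouts and 13.7, 17.2, 17.7 and 14.4 CPM in METTL3 flox livers. All 4 METTL3 knockouts lay below all other livers and all 4 METTL3 flox livers above them, so the flox groups did not overlap; the difference between the effects was 1.604 (0.25 SE, adjusted p = 0.000751). Coordinates here and below are those of GENCODE M21 on GRCm38.

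Total counts ran from 20938715 to 27645935 in labelled RPN11 knockouts, from 24516234 to 28212133 in RPN11 flox livers, from 15980959 to 27778135 in METTL3 knockouts and from 25062848 to 29029592 in METTL3 flox livers. The defining hepatocyte transcripts were abundant in every group, with Alb at a median of 85725, 105350, 73830 and 103750 CPM in the same order. CPM are counts scaled to a common library size. The Alb medians and the summed levels of gene lists were scaled by total counts, without TMM factors. The CPM of single genes in each liver were scaled with TMM factors. Knockout liver 4 of each line stood apart: the summed level of 43 brain genes was 1483 CPM in labelled RPN11 knockout 4 and 1249 CPM in METTL3 knockout 4, and the 24 macrophage markers summed to 5093 and 5351 CPM. The medians of those sums were 212 and 779 CPM in labelled RPN11 knockouts, 141 and 485 CPM in RPN11 flox livers, 177 and 1284 CPM in METTL3 knockouts and 141 and 309 CPM in METTL3 flox livers. Because both lines hold 1 such liver, their shared transcripts enter both effects, and the list counts below are also given without these 2 livers. METTL3 knockout 1 lay closer to the flox livers than the other METTL3 knockouts on the first principal component. It was at 12.5, against 45.5, 46.2 and 126.0 in METTL3 knockouts 2, 3 and 4. In bulk liver, fewer cells of a type and less RNA per cell cannot be told apart.

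**Figure D1:**
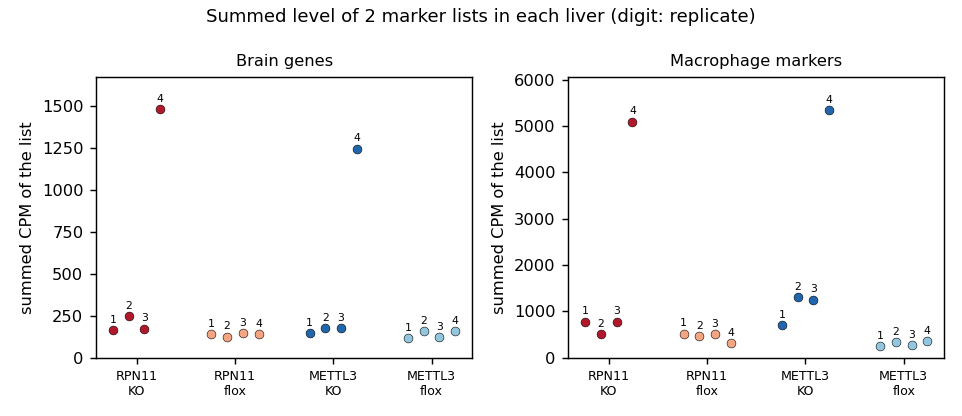
Summed CPM of the brain genes and of the macrophage markers in each of the 16 livers, with the replicate number above each point. Liver 4 of both knockout groups stands far above the rest, at 1483 and 1249 CPM for brain genes.

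The difference between the effects passed the threshold (Benjamini-Hochberg adjusted p under 0.05, edgeR quasi-likelihood test) for 913 genes in the positive direction, 6.96% of those tested, and for 807 in the negative direction, 6.15%, which together are 13.1%. These shares are the background for the list counts below. Among the 1720 genes that passed, the median absolute difference was 1.05 on the log2 scale, 942 differed by more than 1 and 204 by more than 2. The absolute effect was larger in the METTL3 line for 1474 of them, or 85.7%, against 65.6% of all tested genes. By the calls in each line, 1436 had changed in the METTL3 line only, 66 in the RPN11 line only, 39 in both lines in opposite directions, 13 in both in the same direction and 166 in neither. The effect in the labelled RPN11 knockouts alone passed for 160 higher and 183 lower genes (1.22% and 1.4% of those tested, 2.61% together), and the effect in METTL3 knockouts for 2209 higher and 2303 lower genes (16.8% and 17.6%, 34.4% together). The counts in the RPN11 line depended on single livers: they were lowest at 36 without RPN11 flox 1 and at 27 without RPN11 flox 3, and highest at 278 and 345 without METTL3 knockout 1. Without both livers numbered 4 the difference passed for 953 and 869 genes, and 1439 genes were called in both fits, all in the same direction. With 1 liver left out at a time, the counts moved most without METTL3 knockout 1, to 1613 and 1050, and without RPN11 flox 1, to 585 and 510. They fell to 594 and 516 without labelled RPN11 knockout 2, and the negative count was 524 without METTL3 knockout 2 and 511 without METTL3 knockout 3.

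The same difference can be read as the gap between the knockout livers of the lines minus the gap between their flox livers. Labelled RPN11 knockouts differed from METTL3 knockouts for 1446 higher and 1213 lower genes (11% and 9.25%, 20.3% together), and 1443 of the 1720 genes were also called there in the same direction. The flox livers of the lines differed for 1 gene, which was higher in the RPN11 line (0.00762% of those tested), and for 0 lower genes, with 1331 genes at an unadjusted p under 0.05; DESeq2 called 80 and 24 and voom 117 and 49. The knockout gap was the larger one for 1523 of the 1720 genes, or 88.5%. Groups without overlap are pointed out for single genes, so the background is given here. Labelled RPN11 knockouts did not overlap RPN11 flox livers for 17% of all tested genes and 24% of those with a called difference. For METTL3 knockouts and METTL3 flox livers the shares were 30.3% and 77.3%. They were 18.2% and 73.3% for the knockout livers of the lines, and 8.67% and 19.9% for their flox livers.

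**Figure D2:**
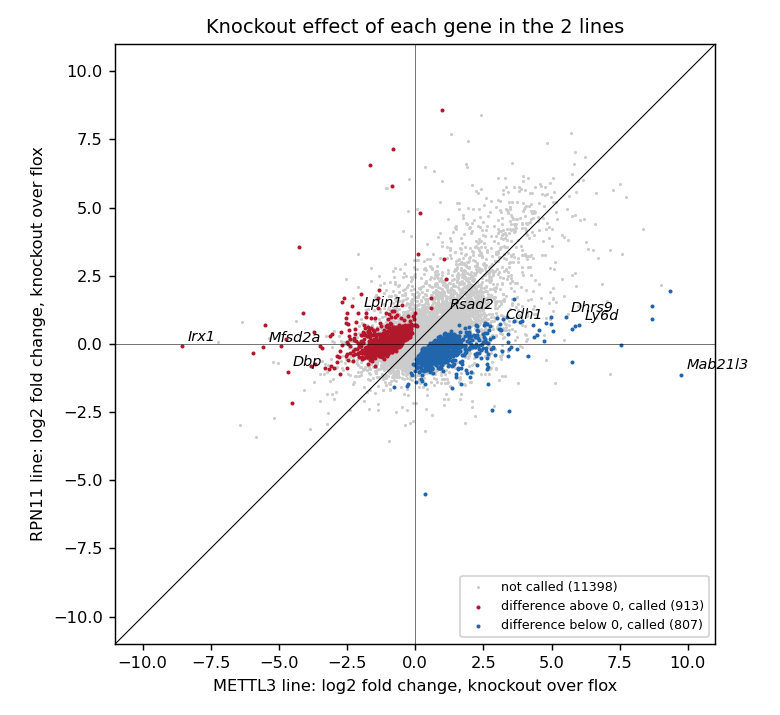
Log2 fold change of each of 13118 genes in the RPN11 line (vertical axis) against that in the METTL3 line (horizontal axis), knockout over flox/flox, with the diagonal of equal effects. Genes with a called difference spread mainly along the horizontal axis: 913 lie above the diagonal (red) and 807 below it (blue).

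Clock genes gave some of the largest positive differences. Per1, Per3 and Ciart of the negative limb and most output genes fell in METTL3 knockouts, while Arntl, the clock's activator, rose there. Of 14 tested core clock genes, 6 had a positive and 1 a negative called difference (7 and 2 without both livers numbered 4), and of 10 clock output genes 8 and 0 did (8 and 0), with median differences of 0.69 and 1.85. The medians were 0.03 and -0.19 in the RPN11 line and -0.63 and -2.06 in the METTL3 line, where 7 of the 14 and 9 of the 10 were lower, and 2 (Arntl and Npas2) and 1 (Nfil3) were higher. The median over all tested genes was 0.02 for the difference, 0.04 in the RPN11 line, against 0.06 in the METTL3 line. Per2 held at most 1 count in any liver and could not be tested.

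The promoter windows below are shown because their genes carry the clock result and hold a short clock element. They run from 250 bases before to 50 after the RefSeq gene start on GRCm38.p6, are read 5′ to 3′ on the gene's strand, and were searched on both strands. Capitals mark the E-box CACGTG, the site of ARNTL and CLOCK, in the windows of Ciart (chr3:95882179-95882478, minus strand), Per1 (chr11:69098699-69098998, plus) and Tef (chr15:81802423-81802722, plus). They mark the D-box TTATGTAA, the site of DBP, TEF and HLF, in Per3 (chr4:151044616-151044915, minus), and the REV-ERB element (AA, any base, then TAGGTCA), a site of the REV-ERB receptors, in Arntl (chr7:113207261-113207560, plus).
Ciart: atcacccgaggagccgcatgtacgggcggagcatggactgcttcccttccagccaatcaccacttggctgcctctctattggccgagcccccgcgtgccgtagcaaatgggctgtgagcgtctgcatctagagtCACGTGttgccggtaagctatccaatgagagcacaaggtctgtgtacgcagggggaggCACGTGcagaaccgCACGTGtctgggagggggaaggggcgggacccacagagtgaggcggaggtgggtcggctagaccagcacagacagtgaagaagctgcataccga
Per1: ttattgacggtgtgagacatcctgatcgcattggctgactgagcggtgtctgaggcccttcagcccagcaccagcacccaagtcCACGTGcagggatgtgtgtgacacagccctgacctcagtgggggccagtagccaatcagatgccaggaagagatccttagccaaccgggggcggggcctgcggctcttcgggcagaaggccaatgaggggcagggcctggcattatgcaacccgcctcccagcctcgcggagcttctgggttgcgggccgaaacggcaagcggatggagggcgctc
Tef: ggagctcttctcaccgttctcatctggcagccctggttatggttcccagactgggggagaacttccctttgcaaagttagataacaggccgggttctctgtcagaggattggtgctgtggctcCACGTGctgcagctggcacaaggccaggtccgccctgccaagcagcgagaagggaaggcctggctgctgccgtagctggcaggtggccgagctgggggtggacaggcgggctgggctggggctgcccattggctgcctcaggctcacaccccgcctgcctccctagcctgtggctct
Per3: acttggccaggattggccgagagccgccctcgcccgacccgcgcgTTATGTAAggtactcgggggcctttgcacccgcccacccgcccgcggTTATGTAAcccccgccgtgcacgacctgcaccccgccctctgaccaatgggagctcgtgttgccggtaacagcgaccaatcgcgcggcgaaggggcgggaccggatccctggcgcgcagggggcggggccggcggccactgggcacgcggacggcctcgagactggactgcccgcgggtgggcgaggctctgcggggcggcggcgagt
Arntl: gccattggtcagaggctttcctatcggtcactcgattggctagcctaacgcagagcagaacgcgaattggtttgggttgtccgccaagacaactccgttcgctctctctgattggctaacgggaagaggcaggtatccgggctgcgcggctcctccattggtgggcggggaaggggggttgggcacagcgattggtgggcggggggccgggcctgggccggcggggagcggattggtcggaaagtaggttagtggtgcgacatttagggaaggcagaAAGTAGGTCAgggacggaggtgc
The Ciart window holds 3 E-boxes and the Per3 window 2 D-boxes. Some genes have several windows. An E-box was in 4 of 16 windows of 12 core clock genes with an entry (25%: Bhlhe41, Ciart, Cry1 and Per1), in 2 of 11 windows of 9 output genes (18.2%, both of Tef) and in 7.15% of all 32851 windows. The D-box was in 1 of the 16 core clock windows (6.25%, Per3), in 0 of the 11 output windows and in 0.938% of all windows. The REV-ERB element was in 1 of the 16 (6.25%, Arntl), in 0 of the 11 and in 0.219% of all windows. The other window of Arntl held 0 matches to it. A match describes letters in the window and is no measure of binding.

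Usp2, a ubiquitin-specific protease with a strong daily rhythm in liver (chr9:44067021-44095627, plus strand), had 41.8, 45.1, 55.5 and 34.8 CPM in labelled RPN11 knockouts and 36.2, 39.7, 52.3 and 58.6 CPM in RPN11 flox livers. Usp2 was at 1.62, 1.99, 1.51 and 2.11 CPM in METTL3 knockouts and 50.7, 64.03, 39.9 and 63.9 CPM in METTL3 flox livers. The METTL3 knockouts did not overlap any other group, and labelled RPN11 knockouts overlapped their flox livers. The difference was 4.84 (0.28 SE, adjusted p = 1.38e-08), with an effect of -0.08 in the RPN11 line, against -4.92 in the METTL3 line. Ciart, a repressor of ARNTL and CLOCK that the deposited table lists as Gm129, had 14.4, 13.5, 12.3 and 15.8 CPM in labelled RPN11 knockouts and 3.72, 5.72, 11.4 and 14.3 CPM in RPN11 flox livers. Ciart was at 0.231, 0.114, 0.831 and 0.301 CPM in METTL3 knockouts and 8.62, 16.9, 16.7 and 26.8 CPM in METTL3 flox livers. Its difference was 6.18 (0.72 SE, adjusted p = 0.000174), the METTL3 knockouts being below 1 CPM in every liver.

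Per1, a repressor of the loop, had 40.9, 46.7, 34.2 and 41.8 CPM in labelled RPN11 knockouts and 21.4, 22.9, 40.2 and 49.6 CPM in RPN11 flox livers. Per1 was at 2.85, 5.78, 7.03 and 5.33 CPM in METTL3 knockouts and 27.3, 57.5, 62.7 and 39.02 CPM in METTL3 flox livers. All 4 METTL3 knockouts lay below every other liver, and the difference was 3.43 (0.45 SE, adjusted p = 0.000455). Per3, of the same family, had 15.3, 22.01, 20.2 and 20.99 CPM in labelled RPN11 knockouts and 28.5, 37.7, 30.4 and 46.98 CPM in RPN11 flox livers. Per3 was at 5.35, 6.43, 2.67 and 5.98 CPM in METTL3 knockouts and 38.1, 60.9, 51.3 and 50.2 CPM in METTL3 flox livers. It was lower in both lines, with a log2 effect of -0.87 in labelled RPN11 knockouts (adjusted p = 0.0466) and -3.297 in METTL3 knockouts, and a difference of 2.43 (0.32 SE, adjusted p = 0.000296).

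Arntl had 17.4, 17.8, 15.7 and 12.1 CPM in labelled RPN11 knockouts and 15.1, 13.8, 12.1 and 9.49 CPM in RPN11 flox livers. Arntl was at 23.4, 22.4, 22.9 and 18.4 CPM in METTL3 knockouts and 7.88, 4.05, 8.71 and 2.56 CPM in METTL3 flox livers. The METTL3 knockouts lay above all other livers, and the difference was negative (-1.59, 0.39 SE, adjusted p = 0.0143). The 2 flox groups also did not overlap for Arntl, the RPN11 flox livers being higher (gap 1.12, adjusted p = 0.198). Npas2, the paralogue of CLOCK, had 0.386, 0.528, 0.219 and 3.21 CPM in labelled RPN11 knockouts, 0.702, 0.1201, 0.0864 and 0.599 CPM in RPN11 flox livers, 8.66, 7.94, 20.3 and 12.1 CPM in METTL3 knockouts and 0.195, 0.428, 0.704 and 0.0407 CPM in METTL3 flox livers; its difference of -3.63 (1.23 SE) missed the threshold (adjusted p = 0.0637) with all 16 livers and passed without both livers numbered 4 (-5.14, adjusted p = 0.00325). Clock itself (0.31, adjusted p = 0.399) and Nr1d1, the REV-ERB alpha receptor (-0.33, adjusted p = 0.769), did not pass.

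Dbp, a PAR bZIP transcription factor, had 6.71, 7.89, 6.43 and 8.81 CPM in labelled RPN11 knockouts and 6.896, 11.1, 15.98 and 26.6 CPM in RPN11 flox livers. Dbp was at 3.39, 2.45, 1.097 and 1.89 CPM in METTL3 knockouts and 28.2, 65.9, 52.1 and 79.1 CPM in METTL3 flox livers. Its difference was 3.66 (0.58 SE, adjusted p = 0.00169), and the flox groups did not overlap here either (gap -1.897, adjusted p = 0.129). Tef, of the same family, had 104, 108, 108 and 91.9 CPM in labelled RPN11 knockouts, 139, 149.5, 155 and 169 CPM in RPN11 flox livers, 62.3, 36.7, 24.6 and 22.97 CPM in METTL3 knockouts and 184, 209, 189.5 and 229 CPM in METTL3 flox livers, again with the METTL3 flox livers above the RPN11 flox livers, and a difference of 1.895 (0.32 SE, adjusted p = 0.00135). Noct, a phosphatase of nicotinamide nucleotides that peaks at night and is listed as Ccrn4l in the deposited table, had 115, 180.5, 133 and 144 CPM in labelled RPN11 knockouts and 35.4, 56.2, 87 and 83.9 CPM in RPN11 flox livers. Noct was at 37.5, 17.3, 22.6 and 21.9 CPM in METTL3 knockouts and 85.1, 159.7, 185 and 132 CPM in METTL3 flox livers. Labelled RPN11 knockouts were above all RPN11 flox livers and METTL3 knockouts below all METTL3 flox livers, giving a difference of 3.62 (0.44 SE, adjusted p = 0.000239), although the RPN11 effect alone missed the threshold (1.12, adjusted p = 0.0611). The cytochrome P450 partner Por (1.79), the haem enzyme Alas1 (2.04), the PAR bZIP factor Hlf (1.18) and the NAD synthesis enzyme Nampt (1.06) also had positive called differences. The part of collection time in these values was not tested, since the hour is not given.

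**Figure D3:**
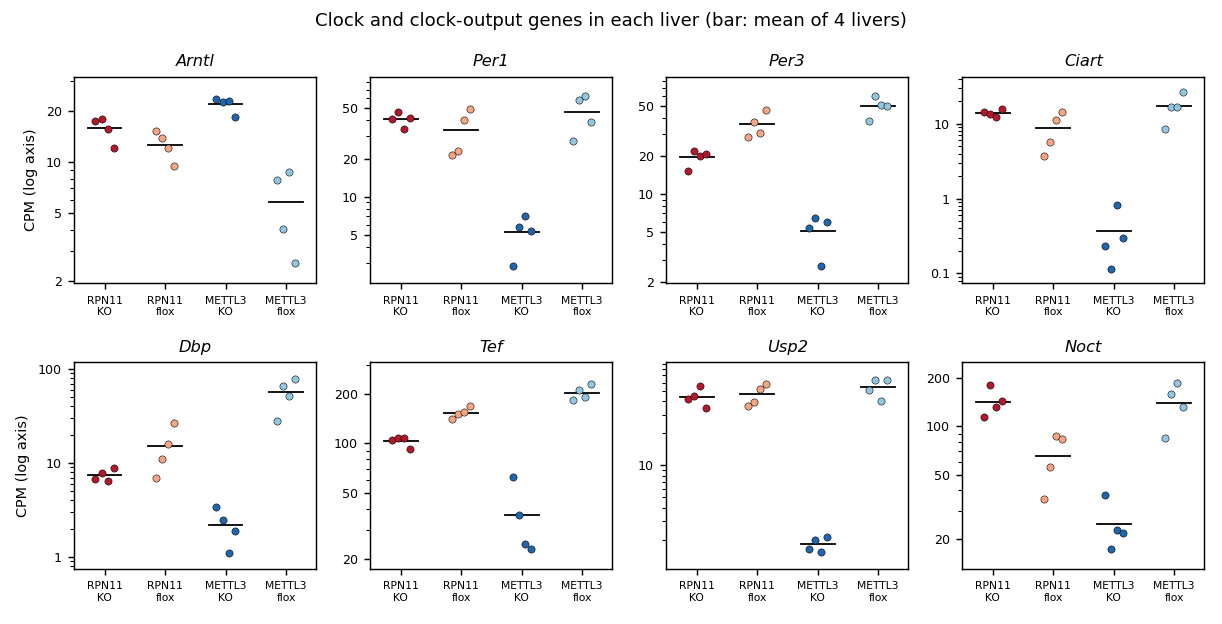
CPM on a log axis of 8 clock and clock output genes in each liver, by group, with the mean of 4 livers as a bar. For all 8 genes the METTL3 knockouts do not overlap the METTL3 flox livers, Arntl lying above them and the others below; such a separation held for 30.3% of all tested genes and 77.3% of those with a called difference.

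Genes that store or break down triglyceride mostly had positive differences, and genes that build cholesterol mostly had negative ones. Of 21 tested genes of lipid droplets and triglyceride, 8 had a positive and 1 a negative called difference (8 and 1 without both livers numbered 4), with a median of 0.99. Of 23 tested cholesterol synthesis and uptake genes, 1 had a positive and 16 a negative one (1 and 14), with a median of -1.01. Of 21 tested fatty acid synthesis genes, 1 and 5 did (1 and 6), with a median of -0.71.

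Mfsd2a, the transporter that carries lysophosphatidylcholine with docosahexaenoic acid into cells (chr4:122946850-122961188, minus strand), had 147, 165, 155 and 134 CPM in labelled RPN11 knockouts and 123, 148, 202 and 184 CPM in RPN11 flox livers. Mfsd2a was at 2.54, 2.11, 3.92 and 3.57 CPM in METTL3 knockouts and 87.8, 152, 192 and 150.2 CPM in METTL3 flox livers. The 4 METTL3 knockouts were far below all others, which overlapped one another. Its difference was 5.45 (0.33 SE, adjusted p = 2e-08). Lpin1, the phosphatidate phosphatase that makes diacylglycerol and also coactivates PPAR alpha (chr12:16535669-16610966, minus strand), had 767, 831, 773 and 575 CPM in labelled RPN11 knockouts and 324, 209.8, 404 and 400.4 CPM in RPN11 flox livers. Lpin1 was at 62.8, 44.6, 73.2 and 55.95 CPM in METTL3 knockouts and 252, 258, 171 and 335 CPM in METTL3 flox livers. It rose in labelled RPN11 knockouts (1.14, adjusted p = 0.0149) and fell in METTL3 knockouts (-2.104, adjusted p = 8.92e-06), each without overlap with its flox livers, and the difference was 3.24 (0.32 SE, adjusted p = 2.59e-05). Plin4, a lipid droplet coat protein, had 6.096, 10.2, 6.12 and 10.5 CPM in labelled RPN11 knockouts, 10.98, 4.88, 10.2 and 10.6 CPM in RPN11 flox livers, 0.7699, 0.598, 0.8898 and 0.516 CPM in METTL3 knockouts and 6.08, 5.096, 13.8 and 5.37 CPM in METTL3 flox livers, with a difference of 3.28 (0.500 SE, adjusted p = 0.000649). The METTL3 knockouts lay below all other livers. The droplet protein Plin5 (1.36), the acyltransferase Dgat1 (1.03) and the monoglyceride lipase Mgll (0.99) also had positive called differences; Mgll was lower in both lines, with log2 effects of -0.74 in labelled RPN11 knockouts and -1.72 in METTL3 knockouts. Plin2, the main droplet coat protein of liver, was lower in both lines (-0.75 and -0.496) and its difference did not pass (-0.25, adjusted p = 0.557).

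The cholesterol genes had effects of opposite median sign in the lines. The median effect was -0.46 in the RPN11 line, where 0 rose and 5 fell, and 0.41 in the METTL3 line, where 11 rose and 2 fell. Hmgcs1, which makes HMG-CoA, had 229, 234, 216 and 171 CPM in labelled RPN11 knockouts, 312, 239, 310.3 and 298 CPM in RPN11 flox livers, 248, 488, 540.3 and 452 CPM in METTL3 knockouts and 184, 199, 241 and 202 CPM in METTL3 flox livers, with a difference of -1.51 (0.28 SE, adjusted p = 0.00226). Within each line its knockout and flox livers did not overlap. Fdft1, squalene synthase, had 46.1, 51.7, 50.8 and 40.4 CPM in labelled RPN11 knockouts and 84.3, 71.7, 97.1 and 118 CPM in RPN11 flox livers. Fdft1 was at 84, 154, 137 and 106 CPM in METTL3 knockouts and 77.02, 98.7, 98.8 and 87.8 CPM in METTL3 flox livers. The labelled RPN11 knockouts lay below all other livers, and the effect passed in that line only (-0.97, adjusted p = 0.0105, against 0.41, adjusted p = 0.0814). The difference between the effects was -1.38 (0.25 SE, adjusted p = 0.00225). Insig1, which retains SREBPs in the endoplasmic reticulum, moved in opposite directions in the lines (-0.59 and 0.37, both called). The 1 positive gene was Ebp, a sterol isomerase (0.72). In METTL3 knockout 1 Hmgcs1 and Fdft1 were at 248 and 84.0 CPM, below the other 3 METTL3 knockouts.

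Of the 21 fatty acid genes, 0 were higher and 8 lower in labelled RPN11 knockouts (median -0.9). In METTL3 knockouts 2 were higher and 6 lower (median -0.14). The median gap of the list was 0.11 between the knockout livers of the lines, with 4 called higher and 4 lower. It was 0.66 between their flox livers, with 0 called, so the median difference of this list lay mostly in the flox gap. Srebf1, which encodes SREBP-1, had 37.5, 41, 34.6 and 32.8 CPM in labelled RPN11 knockouts and 81.6, 114, 102 and 104 CPM in RPN11 flox livers. Srebf1 was at 97.3, 57.9, 81.2 and 56.2 CPM in METTL3 knockouts and 78.3, 78.5, 94.3 and 105 CPM in METTL3 flox livers. The labelled RPN11 knockouts lay below every other liver, and the effect was -1.46 (adjusted p = 0.000386) in the RPN11 line and -0.28 (adjusted p = 0.197) in the METTL3 line, a difference of -1.18 (0.24 SE, adjusted p = 0.0043). Fasn, fatty acid synthase, had 102, 85.7, 119.7 and 86.3 CPM in labelled RPN11 knockouts and 184, 193, 332 and 244 CPM in RPN11 flox livers. Fasn was at 89.5, 174, 262 and 179 CPM in METTL3 knockouts and 157, 181, 139 and 124 CPM in METTL3 flox livers. Its difference was -1.505 (0.36 SE, adjusted p = 0.0125); METTL3 knockout 1 was below the other METTL3 knockouts, and the RPN11 flox livers lay above all METTL3 flox livers. Acaca, acetyl-CoA carboxylase, had 76.1, 56.3, 100.3 and 55.4 CPM in labelled RPN11 knockouts, 118, 139, 132 and 123 CPM in RPN11 flox livers, 89.8, 177, 280.2 and 194 CPM in METTL3 knockouts and 101, 85.7, 69.7 and 63.1 CPM in METTL3 flox livers, with the same gap between the flox groups and a difference of -2.04 (0.38 SE, adjusted p = 0.00334). Thrsp, a lipogenesis cofactor, went the other way (2.25, 0.58 SE, adjusted p = 0.0201), with a log2 effect of -0.92 in labelled RPN11 knockouts and -3.17 in METTL3 knockouts; with the replicate block within each line its adjusted p was 0.0563. The desaturase Scd1 missed the threshold (-1.42, adjusted p = 0.0575).

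**Figure D4:**
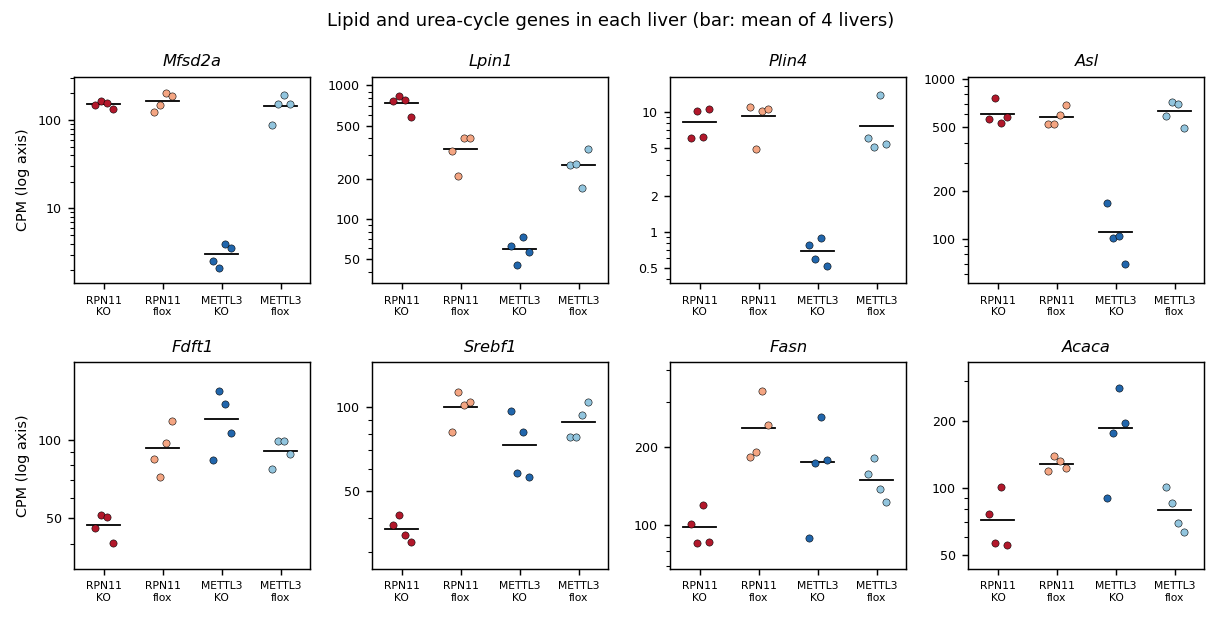
CPM on a log axis of 8 lipid and urea cycle genes in each liver, by group, with the mean of 4 livers as a bar. Mfsd2a, Plin4 and Asl are low in METTL3 knockouts only, Srebf1 and Fdft1 are lowest in labelled RPN11 knockouts, and Lpin1 moves in opposite directions in the 2 lines.

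Nitrogen metabolism showed a one-sided pattern: 17 of 27 tested genes of the urea cycle and amino acid breakdown had a positive called difference and 0 a negative one (20 and 0 without both livers numbered 4), with a median of 1.1. In METTL3 knockouts 21 of the 27 fell and 0 rose, whereas in labelled RPN11 knockouts 0 fell and 1 rose. Asl, argininosuccinate lyase (chr5:130011258-130029247, minus strand), had 562, 759, 533 and 575 CPM in labelled RPN11 knockouts and 523, 520.2, 591 and 692 CPM in RPN11 flox livers. Asl was at 168, 102, 104 and 70.02 CPM in METTL3 knockouts and 590.1, 721, 700 and 494 CPM in METTL3 flox livers. The METTL3 knockouts lay below all others, and the difference was 2.56 (0.31 SE, adjusted p = 0.000146). Ass1, the synthase one step before it, had 2699, 3598, 2649 and 2563 CPM in labelled RPN11 knockouts, 2960, 2857, 2965 and 3516 CPM in RPN11 flox livers, 1288, 868, 862 and 717 CPM in METTL3 knockouts and 2458, 2759, 3615 and 3017 CPM in METTL3 flox livers, with a difference of 1.57 (0.28 SE, adjusted p = 0.00196). Here too the METTL3 knockouts lay below all other livers. Arginase, Arg1 (1.32), ornithine transcarbamylase, Otc (1.104), and ornithine aminotransferase, Oat (1.997), also passed, while the first enzyme of the cycle, Cps1, did not (0.24, 0.38 SE, adjusted p = 0.738). The 1 gene that rose in labelled RPN11 knockouts was Tat, tyrosine aminotransferase (0.94, adjusted p = 0.0442; difference 1.48).

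Other hepatocyte genes leaned the same way in smaller numbers. Of 38 plasma protein genes 6 had a positive and 2 a negative called difference (7 and 2 without both livers numbered 4). The negative count is near the 6.15% of all tested genes. Among the positive ones were the apolipoprotein Apoc3 (1.34) and the retinol carrier Rbp4 (1.59), while Alb did not pass (0.31, adjusted p = 0.653). Of 17 hepatocyte transcription factors 5 and 0 passed (6 and 1), among them Cebpa (0.89), Cebpb (1.37) and the glucocorticoid-responsive Klf15 (1.49), while Hnf4a missed (0.69, adjusted p = 0.095). Cyp7a1, the rate-limiting enzyme of bile acid synthesis, had 311, 389.5, 289 and 254 CPM in labelled RPN11 knockouts and 225, 154, 189 and 250.3 CPM in RPN11 flox livers. Cyp7a1 was at 48.2, 82.4, 111 and 60.1 CPM in METTL3 knockouts and 255, 224, 275 and 249.7 CPM in METTL3 flox livers. Labelled RPN11 knockouts lay above all RPN11 flox livers and METTL3 knockouts below all METTL3 flox livers, and the difference was 2.33 (0.31 SE, adjusted p = 0.000248). The flox groups overlapped. Cyp3a11, the main xenobiotic cytochrome P450 of its family in mouse liver, went the other way with 2295, 2790, 2208 and 1913 CPM in labelled RPN11 knockouts, 2007, 1571, 2648 and 2355 CPM in RPN11 flox livers, 4802, 5303, 5442 and 3642 CPM in METTL3 knockouts and 1518, 1419, 1279 and 981 CPM in METTL3 flox livers (-1.78, 0.29 SE, adjusted p = 0.000982); METTL3 knockouts lay above all other livers, and METTL3 flox livers below them. Pfkfb3, which sets the level of the main activator of glycolysis, had 51.5, 25.03, 52.5 and 25.4 CPM in labelled RPN11 knockouts and 11.8, 7.89, 9.37 and 9.99 CPM in RPN11 flox livers. Pfkfb3 was at 5.24, 7.26, 6.495 and 8.301 CPM in METTL3 knockouts and 18.1, 10.3, 14.1 and 26.6 CPM in METTL3 flox livers. It rose in labelled RPN11 knockouts (1.98, adjusted p = 0.00342) and fell in METTL3 knockouts (-1.34, adjusted p = 0.00251), with a difference of 3.32 (0.42 SE, adjusted p = 0.000238). The glucose transporter of the endoplasmic reticulum Slc37a4 (1.695) and the liver isoform Pfkfb1 (1.96) also had positive called differences.

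The proteasome's own genes differed between the lines in 1 direction. Of 36 tested subunit genes 16 had a positive called difference and 0 a negative one (19 and 0 without both livers numbered 4), with a median of 0.57. In labelled RPN11 knockouts 0 rose and 1 fell (1 and 0 without both), with a median effect of 0.06, and in METTL3 knockouts 0 rose and 21 fell, with a median of -0.46. Psmb4, a subunit of the catalytic core, had 62.5, 64.97, 65.3 and 62.7 CPM in labelled RPN11 knockouts, 50.5, 52, 57.97 and 64.3 CPM in RPN11 flox livers, 44, 35.7, 40.2 and 33.7 CPM in METTL3 knockouts and 64.4, 70.7, 72.2 and 54.97 CPM in METTL3 flox livers, with a difference of 0.96 (0.17 SE, adjusted p = 0.00172). Psmd4, a ubiquitin receptor, had a difference of 0.84 (adjusted p = 0.0022), and Psmd14 itself did not pass, as given above. Oxidative phosphorylation genes gave 19 positive and 0 negative calls of 40 (16 and 0 without both), with medians of -0.16 in the RPN11 line, against -0.75 in the METTL3 line. Ndufb3, of respiratory complex I, had 47.2, 40.9, 44.4 and 42.4 CPM in labelled RPN11 knockouts, 43.9, 36.99, 45.96 and 51.9 CPM in RPN11 flox livers, 23.6, 22.2, 21.98 and 19.01 CPM in METTL3 knockouts and 50.3, 47.97, 54.7 and 51.5 CPM in METTL3 flox livers, and its difference was 1.204 (0.16 SE, adjusted p = 0.000262). For both Psmb4 and Ndufb3 the METTL3 knockouts lay below all other livers, and labelled RPN11 knockouts overlapped their flox livers.

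Chaperones fold new or damaged proteins. Of 16 cytosolic heat shock genes 5 had a positive and 0 a negative called difference (6 and 0 without both livers numbered 4). Hspb1, a small heat shock protein, had 18.1, 24.1, 19.2 and 13.7 CPM in labelled RPN11 knockouts, 6.57, 5.28, 14.6 and 8.704 CPM in RPN11 flox livers, 6.198, 6.46, 4.63 and 3.57 CPM in METTL3 knockouts and 9.09, 11.1, 12.1 and 8.06 CPM in METTL3 flox livers; it rose in labelled RPN11 knockouts (1.095, adjusted p = 0.044) and fell in METTL3 knockouts (-0.95, adjusted p = 0.0148), a difference of 2.04 (0.397 SE, adjusted p = 0.00363). Of 18 endoplasmic reticulum chaperone genes 1 passed (also 1 without both), Herpud1, a membrane protein of the degradation pathway for misfolded proteins, with 558, 449, 559.6 and 324 CPM in labelled RPN11 knockouts, 398, 411, 518 and 521 CPM in RPN11 flox livers, 174, 117, 177 and 61.5 CPM in METTL3 knockouts and 450.1, 534, 597 and 674 CPM in METTL3 flox livers and a difference of 2.12 (0.37 SE, adjusted p = 0.00196). Its METTL3 knockouts lay below all other livers. None of the 17 tested genes of the integrated stress response had a called difference with either set of livers; 9 of them rose in METTL3 knockouts and 0 passed in labelled RPN11 knockouts.

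Many interferon-stimulated genes rose in both lines. Of 30 tested, 18 were higher and 0 lower in labelled RPN11 knockouts, with a median of 0.97, and 21 were higher and 1 lower in METTL3 knockouts, with a median of 0.82. The difference between the effects was positive for 3 and negative for 2 (4 and 2 without both livers numbered 4), near the background of called genes, with a median of 0.1. The windows of Rsad2 (chr12:26456403-26456702, minus strand) and Ifit1 (chr19:34640639-34640938, plus strand) are shown because the difference of the first was near 0 and that of the second was called. Both hold the interferon response element (GAAA, a pair of any bases, then GAAA), which lies on the opposite strand here and so reads in capitals as TTTC, a pair of bases and TTTC.
Rsad2: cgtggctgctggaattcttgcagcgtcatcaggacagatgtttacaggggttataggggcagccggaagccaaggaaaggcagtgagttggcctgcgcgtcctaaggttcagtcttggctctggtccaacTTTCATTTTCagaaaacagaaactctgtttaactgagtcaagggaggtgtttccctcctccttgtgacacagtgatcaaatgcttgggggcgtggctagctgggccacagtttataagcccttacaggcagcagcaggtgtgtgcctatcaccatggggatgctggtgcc
Ifit1: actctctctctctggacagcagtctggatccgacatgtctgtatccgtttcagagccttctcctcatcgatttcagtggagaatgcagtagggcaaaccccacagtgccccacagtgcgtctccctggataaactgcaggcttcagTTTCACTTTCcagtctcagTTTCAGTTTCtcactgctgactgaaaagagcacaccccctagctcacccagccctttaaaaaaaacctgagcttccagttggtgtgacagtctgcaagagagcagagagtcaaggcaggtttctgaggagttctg
That element was in 13 of 26 windows of 21 interferon response genes with an entry (50%) and in 3.44% of all windows. Rsad2, the antiviral enzyme viperin, had 17.9, 20.99, 20.9 and 18.1 CPM in labelled RPN11 knockouts and 10.9, 9.97, 8.596 and 7.599 CPM in RPN11 flox livers. Rsad2 was at 13.2, 19.9, 20.5 and 20.2 CPM in METTL3 knockouts and 8.23, 9.65, 9.41 and 8.34 CPM in METTL3 flox livers. Both knockout groups lay above both flox groups, and the difference was 0.02 (0.23 SE, 95% interval -0.46 to 0.502, adjusted p = 0.971). Ifit1, a cap-binding RNA sensor, rose by 1.68 in labelled RPN11 knockouts and by 0.58 in METTL3 knockouts, a difference of 1.099 (0.28 SE, adjusted p = 0.0152).

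Usp18, which removes the ubiquitin-like modifier ISG15 from proteins, had 26.7, 24.5, 24.8 and 21.3 CPM in labelled RPN11 knockouts and 3.92, 4.48, 4.45 and 5.67 CPM in RPN11 flox livers. Usp18 was at 7.93, 15.1, 17.9 and 13.5 CPM in METTL3 knockouts and 5.26, 4.82, 6.38 and 8.67 CPM in METTL3 flox livers. The labelled RPN11 knockouts lay above every other liver, and METTL3 knockouts overlapped their flox livers. It rose in both lines, more so in labelled RPN11 knockouts (2.39 against 1.12, difference 1.28, 0.32 SE, adjusted p = 0.0148). Ifi27, an interferon-induced membrane protein, had 131, 128, 131 and 111 CPM in labelled RPN11 knockouts and 36.4, 41.4, 55.5 and 52.04 CPM in RPN11 flox livers. Ifi27 was at 45.2, 32.2, 24.3 and 22.2 CPM in METTL3 knockouts and 45.4, 34.5, 39.2 and 53.96 CPM in METTL3 flox livers. The labelled RPN11 knockouts lay above every other liver (1.43, adjusted p = 0.00189), and the METTL3 effect did not pass (-0.48, adjusted p = 0.0677), giving a difference of 1.92 (0.28 SE, adjusted p = 0.000583). Oasl1, a relative of the oligoadenylate synthetases that restrains Irf7 translation in mouse, had 6.67, 7.97, 6.08 and 7.696 CPM in labelled RPN11 knockouts and 4.79, 5.004, 6.87 and 5.02 CPM in RPN11 flox livers. Oasl1 was at 11.4, 32.2, 44.5 and 30.3 CPM in METTL3 knockouts and 6.32, 5.21, 4.35 and 4.07 CPM in METTL3 flox livers. The METTL3 knockouts lay above all other livers, with a difference of -2.18 (0.41 SE, adjusted p = 0.00279). Irf7 itself rose in both (1.46 and 0.88) with no called difference (0.58, adjusted p = 0.134).

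Of 22 tested genes of the interferon gamma GTPases and antigen presentation, 6 had a positive and 0 a negative called difference (7 and 0 without both livers numbered 4). B2m, the light chain of MHC class I, had 2299, 2790, 2244 and 2273 CPM in labelled RPN11 knockouts and 1735, 1620, 1876 and 1986 CPM in RPN11 flox livers. B2m was at 1390, 1234, 1040 and 959 CPM in METTL3 knockouts and 1863, 2085, 2041 and 1633 CPM in METTL3 flox livers. Labelled RPN11 knockouts lay above all RPN11 flox livers and METTL3 knockouts below all METTL3 flox livers, with a difference of 1.13 (0.23 SE, adjusted p = 0.00456). Gbp3, a guanylate-binding GTPase, had 29.6, 25.2, 34.03 and 18.7 CPM in labelled RPN11 knockouts, 11.5, 9.49, 11.9 and 15.98 CPM in RPN11 flox livers, 10.9, 12.5, 8.72 and 8.903 CPM in METTL3 knockouts and 12.4, 9.18, 11.2 and 8.301 CPM in METTL3 flox livers; it rose in labelled RPN11 knockouts (1.14, adjusted p = 0.00985), its METTL3 effect was -0.004, and the difference was 1.14 (0.29 SE, adjusted p = 0.0154).

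Of the 807 genes with a negative called difference, 654 were called higher in METTL3 knockouts and not called in the RPN11 line. A high METTL3 effect lowers the difference by its definition. Of 21 tested NRF2 antioxidant genes 0 had a positive and 7 a negative called difference (0 and 8 without both livers numbered 4). Gstm3, a glutathione transferase, had 20.7, 31.9, 21.96 and 30.2 CPM in labelled RPN11 knockouts and 18.5, 10.6, 34.9 and 23.4 CPM in RPN11 flox livers. Gstm3 was at 83.4, 435, 305 and 518 CPM in METTL3 knockouts and 6.98, 21.6, 23.6 and 13.7 CPM in METTL3 flox livers. All METTL3 knockouts lay above all other livers, METTL3 knockout 1 least, and the difference was -4.09 (0.75 SE, adjusted p = 0.00465). Cdh1, epithelial cadherin and a periportal marker, had 52.01, 58.6, 55.6 and 45.2 CPM in labelled RPN11 knockouts, 38.1, 43.7, 25.7 and 19.9 CPM in RPN11 flox livers, 127, 242, 249 and 230 CPM in METTL3 knockouts and 29.6, 20.97, 14.1 and 34.7 CPM in METTL3 flox livers, with a difference of -2.36 (0.41 SE, adjusted p = 0.0022). Ccnd1, cyclin D1, had 23.2, 23.6, 22.7 and 15.3 CPM in labelled RPN11 knockouts, 21.02, 19.5, 25.7 and 11.5 CPM in RPN11 flox livers, 52.8, 74.96, 37.4 and 70.6 CPM in METTL3 knockouts and 13.7, 11.7, 10.4 and 10.8 CPM in METTL3 flox livers, and its difference was -2.21 (0.33 SE, adjusted p = 0.000649). For Cdh1 and Ccnd1 the METTL3 knockouts lay above all other livers. Periportal genes as a list did not lean 1 way. Of 11 tested, 2 had a positive and 2 a negative called difference (1 and 1 without both livers numbered 4), with a median of -0.02. Ccnd1 was 1 of 3 negative calls, with 1 positive, among 27 tested cell cycle genes, of which 14 rose and 2 fell in METTL3 knockouts and 0 passed in labelled RPN11 knockouts. Without both livers numbered 4, 1 positive and 1 negative of 28 passed, where 953 and 869 of all 13049 tested genes did.

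Marker genes of other liver cells were among those with negative differences. Of 20 tested stellate cell and matrix genes 0 had a positive and 8 a negative called difference (0 and 9 without both livers numbered 4), and 16 rose in METTL3 knockouts against 1 in labelled RPN11 knockouts. The summed level of that list ran from 357 to 504 CPM in labelled RPN11 knockouts, from 279 to 356 CPM in RPN11 flox livers, from 632 to 1039 CPM in METTL3 knockouts and from 276 to 373 CPM in METTL3 flox livers. Col1a1, a fibrillar collagen chain, had 4.28, 8.72, 4.505 and 10.2 CPM in labelled RPN11 knockouts, 2.77, 1.76, 4.97 and 5.39 CPM in RPN11 flox livers, 10.6, 27.8, 31.7 and 36.3 CPM in METTL3 knockouts and 2.42, 1.91, 4.31 and 2.85 CPM in METTL3 flox livers, with a difference of -2.31 (0.600 SE, adjusted p = 0.0197). Col3a1, another fibrillar collagen, had 24.6, 51.95, 28.3 and 42.1 CPM in labelled RPN11 knockouts, 30.8, 21.02, 40.6 and 22.7 CPM in RPN11 flox livers, 62.8, 163, 162 and 149.8 CPM in METTL3 knockouts and 18.6, 20, 30 and 28.3 CPM in METTL3 flox livers, with a difference of -2.12 (0.45 SE, adjusted p = 0.0082). For both collagens every METTL3 knockout lay above all other livers, METTL3 knockout 1 least. Sox9, a transcription factor of bile duct cells, had 15.8, 15.5, 12.7 and 11.8 CPM in labelled RPN11 knockouts, 10.9, 8.37, 9.46 and 7.09 CPM in RPN11 flox livers, 25.7, 38.1, 44.3 and 34.7 CPM in METTL3 knockouts and 6.36, 8.52, 5.94 and 8.83 CPM in METTL3 flox livers (-1.62, 0.27 SE, adjusted p = 0.00111); the METTL3 knockouts lay above all other livers, and it was 1 of 11 tested bile duct markers to pass (also 1 without both). A count of 1 of 11 is near the 6.15% of all tested genes with a negative call. Of 23 macrophage markers 0 and 5 passed (0 and 6 without both). Clec4f, a Kupffer cell lectin, had 102, 52.8, 81.3 and 40.1 CPM in labelled RPN11 knockouts, 89.4, 77.1, 89.8 and 61.9 CPM in RPN11 flox livers, 92.6, 116, 102 and 102 CPM in METTL3 knockouts and 40.99, 61.1, 43.3 and 50.1 CPM in METTL3 flox livers, the RPN11 flox livers lying above the METTL3 flox livers, with a difference of -1.29 (0.32 SE, adjusted p = 0.0143). The other 4, Cd5l, Timd4, Vsig4 and C1qc, ranged from -1.46 to -0.84; all but Vsig4 lost the call in several alternatives, with a highest adjusted p of 0.0658 for Cd5l without labelled RPN11 knockout 2, and of 0.0899 for Timd4 and 0.0687 for C1qc without RPN11 flox 3. Of 3 tested neutrophil markers 0 and 2 passed (0 and 1 of 4 without both). The summed level of the 9 listed markers that the deposited table holds reached 21.3 CPM in METTL3 knockouts. It was at most 3.25 CPM in labelled RPN11 knockouts, 1.56 CPM in RPN11 flox livers and 1.78 CPM in METTL3 flox livers. The part of these cells in the other results was not tested.

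**Figure D5:**
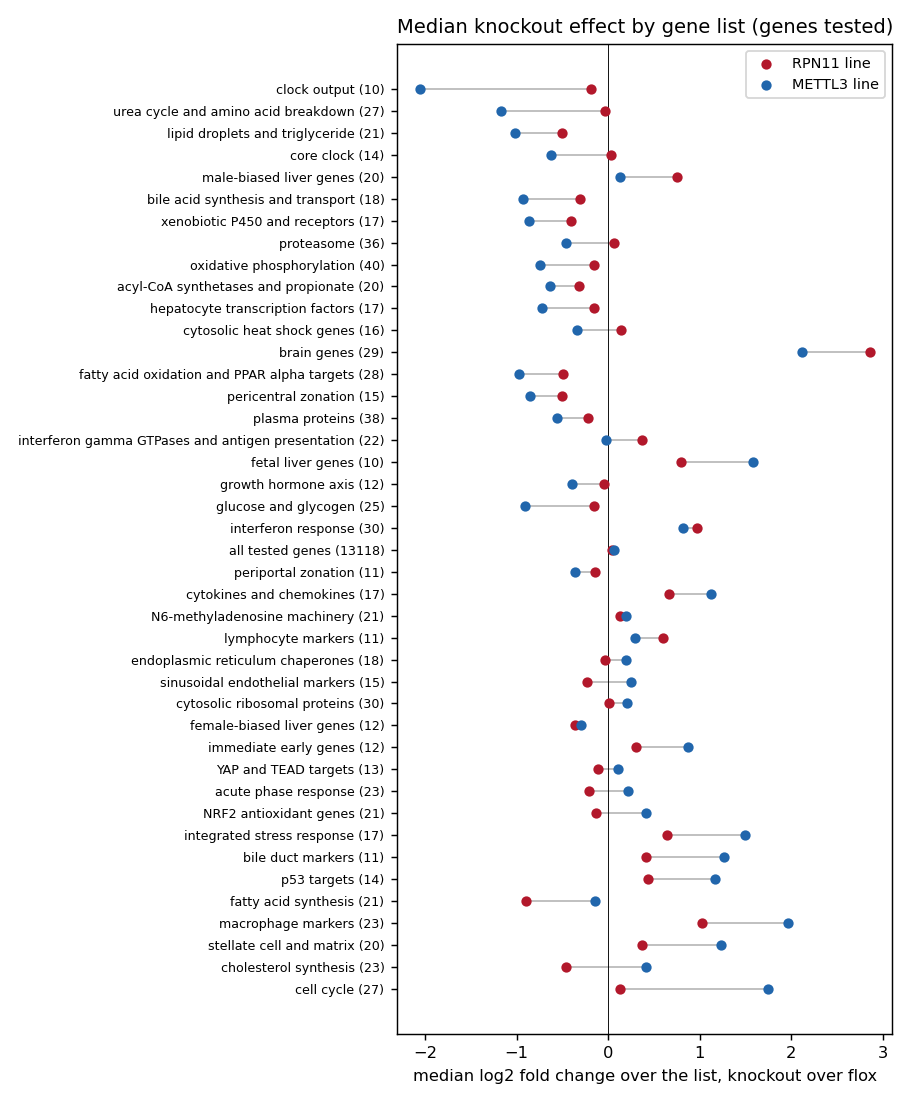
Median log2 fold change, knockout over flox/flox, of each gene list with at least 8 tested genes, for the RPN11 line (red) and the METTL3 line (blue), ordered by the median difference; tested genes are in brackets. Clock output and the urea cycle lie at the top (METTL3 medians of -2.06 and -1.17, RPN11 medians of -0.19 and -0.03) and cholesterol synthesis and cell cycle at the bottom.

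Direct opposition between the lines was found for 39 genes, called in each line with opposite signs and for the difference. Besides Lpin1 and Pfkfb3, those with firm calls in both lines included the membrane matrix protease Mmp14 (-0.69 in the RPN11 line, against 0.84 in the METTL3 line), the integrin chain Itgb5 (-0.64 and 0.596) and the basement membrane collagen Col15a1 (-1.48 and 1.697). The putative RNase Zc3h12d (-1.12 and 1.504) also fell in labelled RPN11 knockouts and rose in METTL3 knockouts. Phf20l1, a reader of histone methylation (0.51 and -0.49), and the splicing-associated Bclaf1 (0.502 and -0.502) rose in labelled RPN11 knockouts and fell in METTL3 knockouts. Zhx2, a repressor of fetal genes in mouse liver, had 19.2, 17.7, 18.5 and 14.6 CPM in labelled RPN11 knockouts and 25.9, 31.8, 25.9 and 27.8 CPM in RPN11 flox livers. Zhx2 was at 30.8, 40.4, 44.8 and 29.2 CPM in METTL3 knockouts and 20.2, 22.7, 23.9 and 22.8 CPM in METTL3 flox livers. Within each line knockout and flox livers did not overlap, and the difference was -1.37 (0.203 SE, adjusted p = 0.0006).

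Genes that changed in the RPN11 line only and had a called difference numbered 66; those named here were chosen after their values were seen. Gas6, the ligand of the TAM receptor kinases, fell by 1.15 on the log2 scale in labelled RPN11 knockouts (difference -1.41, 0.23 SE, adjusted p = 0.00101), and so did Sema4a, a semaphorin (-1.03; difference -1.18), and Soat2, which esterifies cholesterol (-0.88; difference -1.23). Arid4b, a chromatin regulator (0.72; difference 0.88), and the splicing factors Sfpq (0.64; difference 0.93) and Mbnl2 (0.62; difference 0.82) rose in labelled RPN11 knockouts.

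Similar effects could also be bounded. In 143 genes the effect was called in the same direction in both lines, 67 higher and 76 lower, which is 41.7% of the 343 genes called in the RPN11 line and 3.17% of the 4512 called in the METTL3 line. For 96 of them the 95% interval of the difference lay within 1 on the log2 scale on both sides. The same held for 4675 of all tested genes (35.6%). As background, 16.8% of all tested genes were called higher and 17.6% lower in METTL3 knockouts. Over all tested genes the effects of the lines correlated at a Pearson r of 0.551 (Spearman 0.4). Without the outlying knockout livers of high brain gene sums these fell to 0.23 and 0.21. How many of the 143 and 96 genes rest on those livers was not tested. Vnn1, a pantetheinase and PPAR alpha target, had 67.5, 71.96, 68.6 and 52.8 CPM in labelled RPN11 knockouts and 164, 109, 163 and 175 CPM in RPN11 flox livers. Vnn1 was at 51.9, 40.9, 41.1 and 30.5 CPM in METTL3 knockouts and 91.4, 118, 135 and 90.9 CPM in METTL3 flox livers. It fell in both lines (-1.23 and -1.403), and the difference was 0.17 (0.25 SE, 95% interval -0.36 to 0.71). The interferon-induced ring finger protein Rnf213 (0.86 and 0.87), the restriction factor Trim30a (1.02 and 1.02) and the protein kinase C substrate Marcks (0.72 and 0.88) rose in both, and the fatty acid desaturase Fads2 (-1.26 and -1.55) and the lipid-related receptor Ildr2 (-0.97 and -0.97) fell in both. The remaining genes of this kind named by the rule, Epha1, Filip1l and Appl1, had differences of 0.08, -0.01 and -0.51.

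At the extremes of the difference stood genes at or near 0 in 1 group. Irx1, a homeobox factor, had 0 counts in all 4 METTL3 knockouts against 183 counts in METTL3 flox livers, at least 17.6-fold lower against a floor of 3 counts per library. It had 1.003, 1.47, 1.44 and 0.576 CPM in labelled RPN11 knockouts and 0.826, 1.201, 2.12 and 0.645 CPM in RPN11 flox livers. Mab21l3 had 514 counts in METTL3 knockouts and 0 in METTL3 flox livers, at least 34.4-fold higher against the same floor; it reached 5.37 to 5.69 CPM in METTL3 knockouts 2 to 4 and 0.154 CPM in METTL3 knockout 1, while no RPN11 liver exceeded 0.578 CPM. Dhrs9, a retinol and steroid dehydrogenase (chr2:69380445-69404533, plus strand), had 3.78, 6.42, 4.11 and 8.48 CPM in labelled RPN11 knockouts and 4.005, 3.32, 2.505 and 1.66 CPM in RPN11 flox livers. Dhrs9 was at 11.6, 26.99, 27.4 and 28.1 CPM in METTL3 knockouts and 0.585, 0.3501, 0.616 and 0.488 CPM in METTL3 flox livers. Its difference was -4.53 (0.496 SE, adjusted p = 6.09e-05), and it was the 1 gene called between the flox livers of the lines, at 2.49 higher in the RPN11 flox livers on the log2 scale (0.37 SE, adjusted p = 0.0363). Ly6d, a surface antigen, and Elf3, an epithelial transcription factor, had differences of -5.33 and -5.22 (adjusted p = 0.0227 and 0.0256), which missed the threshold without both livers numbered 4 (-4.84 and -4.61, adjusted p = 0.0527 and 0.0565). Uridine phosphorylase Upp2 (3.402) was among the other positive extremes, and the integrin chain Itga6 (-4.02) among the negative ones.

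Within the N6-methyladenosine machinery, 2 of 21 tested genes had a positive and 2 a negative called difference (2 and 1 without both livers numbered 4). Over all tested genes 6.96% and 6.15% did, so counts this small do not set the list apart. The positive ones were Mettl3, the gene targeted in the METTL3 line, and the nuclear reader Hnrnpa2b1 (0.97). The negative ones were the reader Ythdf2 (-0.800, adjusted p = 0.0664 without METTL3 knockout 2) and the demethylase Fto (-0.64). Mettl14, the partner of METTL3, had a difference of -0.05 (0.25 SE, adjusted p = 0.93). No gene of the growth hormone axis (12 tested), the immediate early genes (12), the lymphocyte markers (11) or the red blood cell markers (5) had a called difference with all 16 livers; without both livers numbered 4, 1 red blood cell marker of 6 did.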

How the data were processed

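The authors deposited raw read counts per gene for 16 livers; reads were trimmed with cutadapt 1.9.3, aligned with HISAT2 2.0.4 to mm10 and counted with HTSeq 0.9.1, and edgeR was used, per the submitters' processing notes. Whether counting used strand is not stated by the labels, so reads of overlapping and antisense genes cannot be told apart. The 16 normalized columns of the same table were not used. Here the deposited counts were fitted in edgeR 4.0.16 (R 4.3.3) with filterByExpr, TMM factors and a robust quasi-likelihood model of 4 group means over all 16 livers (12 residual degrees of freedom). The difference contrast was (RPN11 knockout minus RPN11 flox) minus (METTL3 knockout minus METTL3 flox), with Benjamini-Hochberg adjustment over 13118 genes. Counts of 13118 genes were also simulated with these depths, with 100 genes changed 2-fold and 100 changed 4-fold in labelled RPN11 knockouts only. Of these, 20% and 73% were recovered. That simulation gave 95 calls, against 1720 in the data, so the adjusted threshold was not alike. The recovered shares therefore do not give the recovery in the data. The CPM of single genes in each liver use TMM library sizes, while the Alb medians and marker sums use total counts. Both carry counting error as well as the spread between livers.

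The comparison and all gene lists were chosen with earlier results of these data known. By rule, genes named one by one were the largest and firmest differences and the firmest members of each list. Arntl, Npas2, Tef, Usp18, Ebp, Fto, Tat and the genes of the RPN11 line only were chosen after their values were seen. Hlf, Por, Nampt, Plin5, Dgat1, Thrsp, Insig1, Otc, Oat, Cebpa, Ifit1, Cd5l and Timd4 were also picked outside the rule. The same holds for some list members that did not pass. Some genes chosen by the rule are left out of the text. Replicate numbers were checked for pairing: same-numbered livers within a line correlated at -0.051 to 0.228 in their deviations from the group means, so they were not treated as pairs; knockout livers across the lines correlated at 0.177 to 0.707, and a block on the number moved their gap to 1529 and 1236 genes. Among all pairs of livers, numbers 1 and 3 of the labelled RPN11 knockouts differed least (chi-square per gene 8.15, against 1 for counting noise) and were kept as separate samples. Alternatives were DESeq2 1.42.0, voom with quality weights in limma 3.58.1, other scaling, filters, replicate blocks, a size threshold and single omitted livers. Promoter sequences are RefSeq's on GRCm38.p6 and coordinates GENCODE M21's, which held 16804 of the 16973 genes.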

Additional observations from a re-analysis of the deposited data

Results flagged for a closer look

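In 208 groups of 4 livers examined, 19 held a liver far from the other 3, where 10.4 would be expected by chance at about 1 in 20. Among library measures these were the total of 15980959 counts in METTL3 knockout 4, the brain gene sums of 1483 CPM in labelled RPN11 knockout 4 and 1249 CPM in METTL3 knockout 4, and the macrophage marker sums of 5093 and 5351 CPM in the same livers. In labelled RPN11 knockout 4, Npas2 (3.21 CPM), Ifi27 (111 CPM) and Ccnd1 (15.3 CPM) stood apart from the other 3 livers of the group. In METTL3 knockout 1, Rsad2 (13.2 CPM), Cdh1 (127 CPM), Dhrs9 (11.6 CPM), Col3a1 (62.8 CPM) and Mab21l3 (0.154 CPM) stood below the other 3. Labelled RPN11 knockout 2 stood apart for Ass1 (3598 CPM) and B2m (2790 CPM). Single flox livers stood apart for Plin4 (4.88 CPM in RPN11 flox 2 and 13.8 CPM in METTL3 flox 3), Ass1 (3516 CPM in RPN11 flox 4) and Oasl1 (6.87 CPM in RPN11 flox 3). The knockout effects themselves differed between the lines, by the edgeR test of the difference, for 913 genes in the positive and 807 in the negative direction.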

How the results depend on the processing

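Of 207 genes chosen by the rule or picked outside it, not all of them named in the text, none changed the sign of a called difference under the alternatives run. Of these, 157 had a called difference. In the fits that tested them, 128 of the 157 kept it under every alternative other than single omitted livers and the size threshold. Likewise 121 kept it under every single omission and 116 under both kinds, while 10 lost it without both knockout livers numbered 4. A gene absent from a fit was not counted as losing its call there. The fit of genes with at least 5 CPM held only 8901 genes, so genes of low level were not tested in it. Positive and negative counts for the difference were 1871 and 1607 with voom and 104 and 122 when a change over 1.5-fold was required. The RPN11 effect gave 513 and 481 genes with DESeq2, 670 and 739 with voom, 82 and 119 with a replicate block within each line, and 9 and 2 over 1.5-fold; its higher count was 93 with no filter, 267 with genes of at least 5 CPM and 102 with labelled RPN11 knockouts 1 and 3 averaged, a choice made after seeing the data. The METTL3 effect gave 629 and 585 over 1.5-fold. The gap between knockout livers gave 2317 and 2261 with voom and 187 and 185 over 1.5-fold. The gap between flox livers gave 80 and 24 with DESeq2 and 117 and 49 with voom; its higher count was 0 with upper-quartile scaling, 0 with the common replicate block, 0 over 1.5-fold, 2 with genes of at least 5 CPM and 13 without both livers numbered 4.

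With 1 liver left out at a time, the difference ranged from 585 to 1613 positive and from 510 to 1050 negative genes, the RPN11 effect from 36 to 278 higher and from 27 to 345 lower, the METTL3 effect from 1649 to 2598 and from 1799 to 2726, the knockout gap from 1019 to 2087 and from 780 to 1478, and the flox gap from 0 to 6 and from 0 to 1. The replicate numbers showed no pairing within lines; a common replicate block gave 934 and 837 genes for the difference and a block within each line 861 and 691. The cause of these shifts was not tested. Depth limits genes near 0 CPM, and 4 livers a group limit small differences: the median SE of the difference was 0.326 on the log2 scale.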
